A study of Canis lupus familiaris with 124 samples.

Results

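Metadcarc1511.2 and Metadcarc1511.3 are 2 canine cell lines that were established from separate lymph node metastases, Ln4.2 and Ln4.3, of prostate adenocarcinoma (PAC) in the same dog, a neutered male Dobermann aged 6 years. The comparison rests on 6 of the 31 libraries of the series, 3 per line, each sequenced on 4 lanes, so that 24 of 124 lane tables were used. The libraries were chosen by their line labels. Libraries of Metadcarc1511.2 came from passage 68 (replicate 1), 75 (replicate 2) and 79 (replicate 3). Those of Metadcarc1511.3 came from passage 79 (replicate 1), 86 (replicate 2) and 87 (replicate 3). Replicate 1 is therefore the earliest library of each line, and passage 79 is the only one that both lines share. All flasks were grown in Medium 199 with fetal calf serum, penicillin and streptomycin, without any further treatment, and were harvested before confluence. Adcarc1511.1, a line from the primary PAC of the same dog (3 libraries, passages 88, 94 and 95), and the 2 original tissues (1 library each) served for description.

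The 6 libraries held between 15355777 and 18254335 expected counts, and a floor of 3 counts corresponded to between 0.164 and 0.195 CPM (counts scaled to a common library size). Counts of the 4 lanes varied between 1.07 and 1.13 times as much as counting noise alone would give. The libraries are flasks of 1 line each from 1 tumor site of 1 dog. The p-values thus rest on spread among these flasks and their passages, and do not measure the spread between metastases. Gene symbols were at hand for 1120 of the 32183 Ensembl genes, most of them genes that the study singled out in these samples, and the gene groups below are the members with a symbol.

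Metastatic carcinoma cells grow as an epithelium that is held together by cadherins, tight junctions and desmosomes, and is anchored to laminins and other matrix proteins by integrins. Luminal prostate epithelium is known for secreted kallikreins such as KLK2, and FOLH1, the prostate-specific membrane antigen, is a surface marker of many prostate tumors. Lines from different metastases of 1 patient can carry different programs, and a line can also move during serial passage.

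Both lines were epithelial by their markers. All 8 epithelial markers with an identifier, among them EPCAM, CLDN7, OCLN and JUP, had at least 10 counts in all 6 libraries, with a summed level between 2060 and 2463 CPM in Metadcarc1511.2 and between 1792 and 2328 CPM in Metadcarc1511.3. Of the 6 fibroblast markers, none had 10 counts in every library, DCN was at 0 in all 6, and the sum was between 0.806 and 2.22 CPM in Metadcarc1511.2 and between 1.42 and 3.40 CPM in Metadcarc1511.3. Of the 7 leukocyte markers, SPI1, TYROBP, C1QB and C1QC were at 0 in all 6 libraries, and the sum was between 0.604 and 1.21 CPM and between 0.233 and 0.702 CPM. Among the 5 endothelial markers only FLT4, a receptor for vascular endothelial growth factors C and D, had at least 10 counts in every library, at 57.2 to 108 CPM. KDR had at most 1 count, and VWF had between 4 and 23 counts. Of the prostate markers, KLK2 was at 0 in all 6 libraries, whereas HOXB13, a homeobox factor of prostate epithelium, was between 10.8 and 23.5 CPM.

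The libraries were ordered by replicate number as much as by line. The distance between 2 libraries, as the root mean square difference of log2 CPM over the 12125 genes tested, averaged 0.70 within a line (range 0.45 to 0.89, 6 pairs). Between libraries of the same number in different lines it averaged 0.72 (0.68 to 0.75, 3 pairs), and between libraries of different number and line 0.95 (0.81 to 1.06, 6 pairs). The replicates 1 of both lines were nearest to each other, at 0.68, and each of the other 4 libraries was nearest to a library of its own line. The most distant pair, at 1.06, was the pair at the same passage, 79, namely the last library of Metadcarc1511.2 and the earliest of Metadcarc1511.3.

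**Figure D1:**
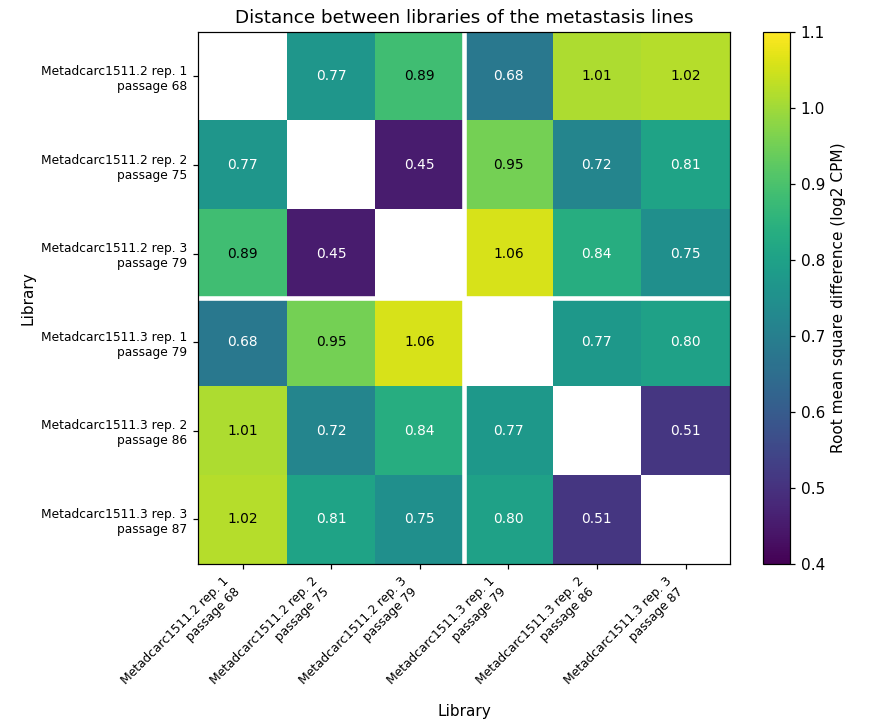
Root mean square difference in log2 CPM between each pair of the 6 libraries over the 12125 genes tested; rows and columns are libraries with their passage, and darker fields are smaller distances. The replicates 1 are at 0.68 from each other across lines, and the 2 libraries of passage 79 are the most distant pair at 1.06.

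Of the summed squares of log2 CPM around the gene means, 54.1% followed the replicate number, 38.9% the line and 7.06% neither. The replicate number has 3 levels and the line 2. Its share thus rests on 2 degrees of freedom against 1, and the shares do not rank the sources. Deviations from the line mean correlated across genes between same-numbered libraries of the lines, with 0.83 for replicate 1, 0.71 for replicate 2 and 0.72 for replicate 3. In Adcarc1511.1, the deviations of same-numbered libraries correlated with those of the metastasis lines by at most 0.26 and by no more than 0.02 for replicate 3. What same-numbered flasks of the metastasis lines shared, besides their rank in passage, is not given in the labels. Since the numbers paired the libraries, the line difference was fitted without and with the replicate number as a block.

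The first comparison asks which genes separate the lines. Without the block, 58 of 12125 genes (0.478%) were called by edgeR's quasi-likelihood test (p adjusted by Benjamini-Hochberg, limit 0.01, with a change of 2-fold or more), of which 17 were higher (0.14%) and 41 lower (0.338%) in Metadcarc1511.3. With the replicate block, 545 genes (4.49%) were called, 197 higher (1.62%) and 348 lower (2.87%), and these held all 58. Only 2 residual degrees of freedom were left with the block. Its p-values measure how the line difference varied between replicate numbers, and those without the block the spread between flasks and passages of a line. The CPM of the lines did not overlap for any of the 58 genes, for 467 of the 545, and for 2073 of all genes tested (17.1%). Lines and passages differed together, so that apart from passage 79 a difference between lines and between passages cannot be told apart.

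Of the 58 genes, 6 had a symbol. GDF15, a secreted member of the TGF-beta superfamily that cells release under stress, had 25.9, 27.5 and 16.2 CPM in replicates 1 to 3 of Metadcarc1511.2 and 0.170, 0 and 0.0583 CPM in Metadcarc1511.3. It was thus expressed in every library of the first line and close to absent in the second. With 1179 against 4 counts, the ratio was 308 (95% counting interval 120 to 1131), and edgeR gave an adjusted p of 0.0029 without and 9.6e-06 with the block.

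LAMA4, the alpha 4 chain of laminins in vascular and mesenchymal basement membranes, had 5.51, 3.96 and 3.82 CPM in Metadcarc1511.2 and 0.0566, 0 and 0 CPM in Metadcarc1511.3. The second line held 1 count against 223, a ratio of 233 with a counting interval of 41.3 to 9231 (edgeR adjusted p = 0.0042 without and 8.1e-05 with the block). The groups did not overlap, and neither line approached the level of the tissues, at 1132 CPM in Ln4.2 and 284 CPM in Ln4.3, which hold vessels and stroma.

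TMEM47, a membrane protein of cell junctions, was the gene with the smallest adjusted p among these 6. It had 460, 394 and 551 CPM in Metadcarc1511.2 and 5.15, 3.45 and 2.86 CPM in Metadcarc1511.3, a log2 difference of -6.93 ± 0.32 (SE; edgeR adjusted p = 0.00063 without and 3.5e-06 with the block). Every library of the first line was far above every library of the second.

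CDH6, a classical cadherin of embryonic kidney and other epithelia, had 46.8, 55.6 and 82.0 CPM in Metadcarc1511.2 against 1.47, 1.08 and 2.86 CPM in Metadcarc1511.3, a log2 difference of -5.09 ± 0.44 (edgeR adjusted p = 0.0042 without and 3.5e-06 with the block). SLIT2, a secreted ligand of ROBO receptors in axon guidance and cell migration, had 36.5, 37.6 and 26.4 CPM against 2.21, 0.702 and 0.641 CPM, with -4.82 ± 0.52 (edgeR adjusted p = 0.0085 and 3.8e-05). Both genes were low but still detected in Metadcarc1511.3, with its replicate 1 the highest for SLIT2 and its replicate 3 the highest for CDH6.

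PPIC, cyclophilin C, a prolyl isomerase of the secretory pathway, was the one called gene with a symbol that was higher in Metadcarc1511.3. It had 1.07, 1.54 and 0.665 CPM in Metadcarc1511.2 and 12.1, 13.4 and 9.50 CPM in Metadcarc1511.3, a log2 difference of 3.40 ± 0.36 (edgeR adjusted p = 0.0081 without and 4.3e-05 with the block). The lowest library of the second line was above the highest of the first. When single libraries were left out of the fit without the block, the 6 genes kept their direction in all 6 settings, but the adjusted p rose past the limit in 4 to 6 of the settings for the 5 genes other than TMEM47 and in 2 for TMEM47 (edgeR adjusted p between 0.0015 and 0.055 over these genes and settings).

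The other 52 genes had no symbol. Those with the largest changes were ENSCAFG00000001101 and ENSCAFG00000010677, at 38.2, 22.4 and 23.9 CPM and at 17.5, 31.6 and 29.3 CPM in Metadcarc1511.2 and at no more than 0.170 CPM in any library of Metadcarc1511.3. In the other direction, ENSCAFG00000000843 had at most 0.269 CPM in Metadcarc1511.2 and 12.8, 25.0 and 41.9 CPM in Metadcarc1511.3, and ENSCAFG00000030354 had at most 0.201 CPM and 21.6, 10.8 and 7.75 CPM. Over all genes, 25 had at least 10 counts in each library of Metadcarc1511.2 and at most 3 in each library of Metadcarc1511.3, and 15 had the opposite pattern. Of these 40 genes, 39 were called with the block and 13 without it. They were picked from the same libraries as the calls, so that these numbers add no support for the pattern.

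**Figure D2:**
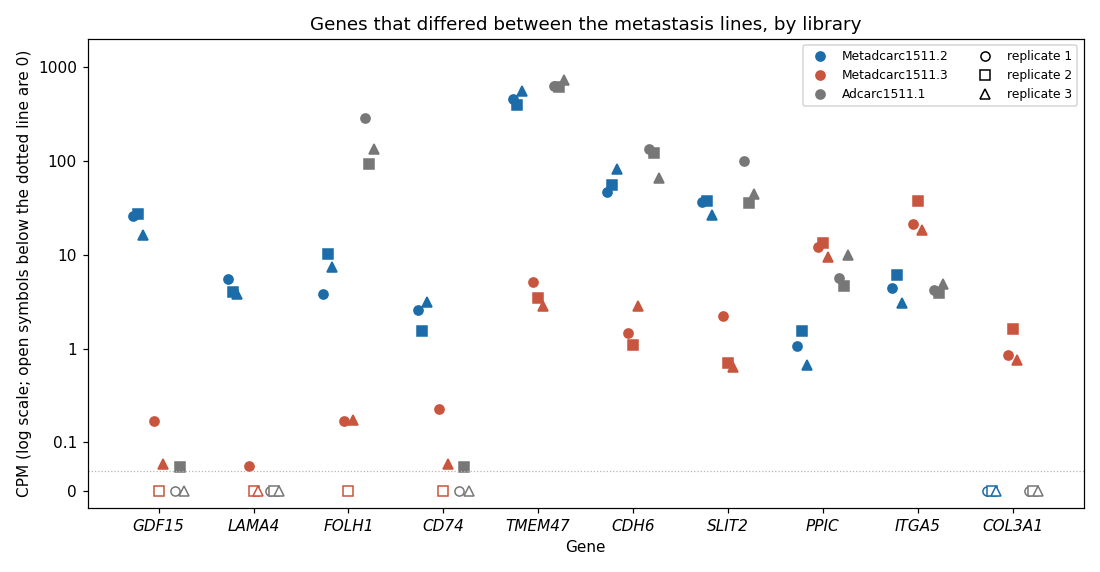
CPM on a log scale of 10 genes in each library of Metadcarc1511.2, Metadcarc1511.3 and Adcarc1511.1; symbols give the replicate number, and open symbols below the dotted line are values of 0. For each of the 10 genes the 3 libraries of Metadcarc1511.2 and the 3 of Metadcarc1511.3 do not overlap.

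Within each replicate number, the difference between lines was of similar extent. At least a 2-fold difference was found for 355 genes higher and 504 lower in Metadcarc1511.3 in replicate 1, for 366 and 544 in replicate 2, and for 489 and 553 in replicate 3. Of these genes, 158 were higher and 287 lower in all 3, while 13 genes differed 2-fold in opposite directions in 2 numbers. These counts use CPM of single libraries with a prior count of 2 and no test.

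**Figure D3:**
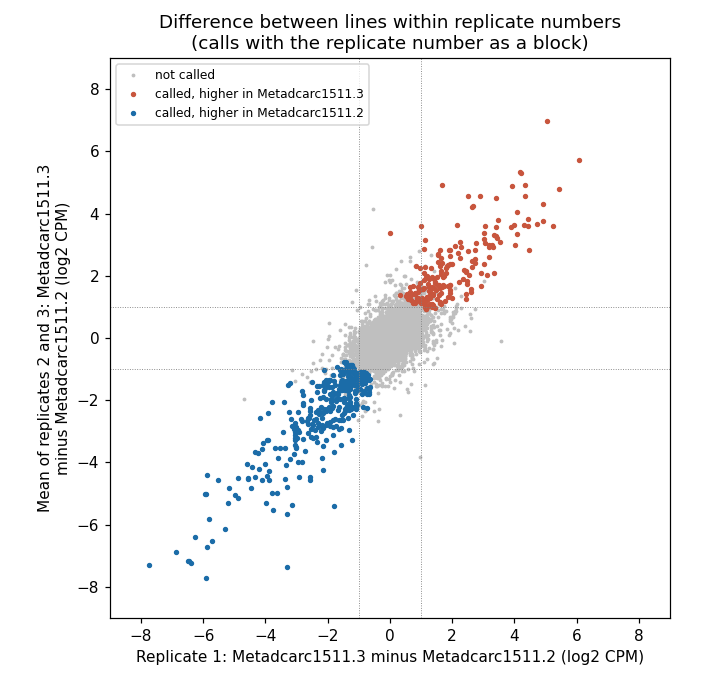
Difference between the lines in log2 CPM (Metadcarc1511.3 minus Metadcarc1511.2) in replicate 1 on the horizontal axis and as the mean of replicates 2 and 3 on the vertical axis, for the 12125 genes tested. The 197 genes called higher and 348 called lower with the replicate block are colored. Of these 545, 544 have the same sign in all 3 replicate numbers, which calls made from the same differences largely set in advance.

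The block added genes in several groups, and 50 of its 545 genes had a symbol. The further genes below were selected by the same rule as the first 6, applied to the fit with the block after its values had been seen. None of them was called without the block, where their adjusted p by edgeR lay between 0.016 and 0.56. For all of them the share of genes called in the whole table, 4.49%, is the background of each count.

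Matrix and adhesion genes moved in both directions. Of 14 tested genes of the fibroblast matrix group, 2 were higher and 2 lower in Metadcarc1511.3 with the block, and none was called without it. COL3A1, a fibrillar collagen chain, had 0 counts in all 3 libraries of Metadcarc1511.2 and 15, 30 and 13 counts in those of Metadcarc1511.3, at least 6.18-fold higher against a floor of 3 counts per library (edgeR adjusted p = 0.0038 with and 0.041 without the block). These are traces beside 19131 CPM in Ln4.2 and 2202 CPM in Ln4.3, and the fibrillar partners COL1A1 and COL1A2 had at most 5 counts in any library.

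COL10A1, a collagen chain of hypertrophic cartilage, was at 143, 23.2 and 6.87 CPM in replicates 1 to 3 of Metadcarc1511.2 and at 12.2, 3.24 and 0.233 CPM in those of Metadcarc1511.3. It was lower in Metadcarc1511.3 in every replicate number and also lower at each later passage of both lines, so that the lines overlapped. The log2 difference was -3.41 ± 0.23 with the block (edgeR adjusted p = 7.1e-05) and -3.47 ± 1.45 without (0.43), but 0.82 in the opposite direction with the passage number as a covariate (edgeR adjusted p = 0.43).

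The fibulins are elastic fiber and basement membrane proteins, and 2 of them changed in opposite ways with the block. FBLN5 had 29.2, 29.3 and 22.4 CPM against 11.1, 6.53 and 4.72 CPM (log2 difference -1.92 ± 0.19), and FBLN1 had 12.8, 12.1 and 8.43 CPM against 19.5, 29.3 and 24.0 CPM (1.13 ± 0.18). In neither case did the lines overlap, and the adjusted p by edgeR were 0.00042 and 0.0042. The most abundant gene of the group, COL5A2, at 934 to 1631 CPM against 630 to 831 CPM, was not called with the block (edgeR adjusted p = 0.018).

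Of 16 tested integrins, laminins and basement membrane genes, LAMA4 was lower and ITGA5 higher in Metadcarc1511.3. ITGA5, the alpha chain of the fibronectin receptor, had 4.43, 6.04 and 3.05 CPM against 21.5, 37.2 and 18.2 CPM, a log2 difference of 2.5 ± 0.14 (edgeR adjusted p = 3.4e-05 with and 0.030 without the block). ITGA6, the laminin receptor chain, was at 141, 410 and 505 CPM against 97.9, 201 and 187 CPM, and at -1.0 ± 0.16 it stayed just short of 2-fold (edgeR adjusted p = 0.0048 with the block).

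Of 15 tested epithelial junction and differentiation genes, 1 was called with the block. EPCAM, the epithelial adhesion molecule, had 553, 399 and 454 CPM against 247, 199 and 226 CPM, without overlap, and a log2 difference of -1.06 ± 0.10 (edgeR adjusted p = 0.00033 with and 0.046 without the block). The other 14 had log2 differences between -0.30 and 0.34 with the block. The mesenchymal transcription factor SNAI2 was also lower in Metadcarc1511.3, with 3.89, 9.73 and 8.87 CPM against 0.849, 3.99 and 2.56 CPM, where only replicate 2 of the second line reached the lowest library of the first (log2 difference -1.66 ± 0.22, edgeR adjusted p = 0.0018 with the block).

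Among the prostate and hormone markers, 21 were identified and 9 tested, of which 1 was lower and 1 higher in Metadcarc1511.3 with the block. FOLH1 had 3.83, 10.1 and 7.37 CPM in Metadcarc1511.2 and 0.170, 0 and 0.175 CPM in Metadcarc1511.3. With 374 against 6 counts, the ratio was 65.0 (95% counting interval 29.6 to 178, edgeR adjusted p = 0.00022 with and 0.016 without the block). GSTP1, a glutathione transferase that detoxifies electrophiles, had 12.2, 18.5 and 19.4 CPM against 21.6, 40.6 and 62.3 CPM, higher in Metadcarc1511.3 in every replicate number (log2 difference 1.23 ± 0.16, edgeR adjusted p = 0.0019 with the block).

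Further members were not called. HOXB13 had 10.8, 13.5 and 11.8 CPM against 23.0, 23.5 and 18.2 CPM (log2 difference 0.84 ± 0.14, edgeR adjusted p = 0.0050 with the block), and GOLM1, a Golgi membrane protein, 307, 349 and 346 CPM against 159, 191 and 156 CPM (-0.99 ± 0.10, 0.00053). In both genes the lines did not overlap and the difference was less than 2-fold. FASN, the fatty acid synthase, was between 632 and 1140.1 CPM, TMEFF2 between 16.1 and 135 CPM, TMPRSS2 between 2.04 and 3.85 CPM and PSCA between 0.270 and 1.61 CPM over the 6 libraries. KLK2, PGR and SPINK1 were at 0 in all of them, and ESR1, ESR2, TP63, AMACR and HSD3B2 had at most 4 counts in any. HNF4G did not exceed 0.873 CPM.

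Of 18 tested genes of growth factor and PI3K-AKT signalling, VEGFA was higher and SPRY2 lower in Metadcarc1511.3 with the block. VEGFA, the vascular growth factor, had 262, 92.0 and 98.3 CPM against 394, 182 and 289 CPM, higher in Metadcarc1511.3 in every number although the lines overlapped (log2 difference 1.04 ± 0.17, edgeR adjusted p = 0.0050 with and 0.56 without the block). SPRY2, a feedback inhibitor of receptor tyrosine kinases, had 15.2, 17 and 17.3 CPM against 9.79, 6.58 and 4.95 CPM, without overlap (-1.25 ± 0.22, 0.0062 with the block).

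None of the other members was called between lines, and levels over the 6 libraries are given for most of them. PTK2 was between 342 and 355 CPM, EGFR between 36.1 and 70.6 CPM, BRAF between 13.2 and 14.8 CPM, ARAF between 66.9 and 100.2 CPM, HRAS between 40.8 and 60.0 CPM and PDPK1 between 22.3 and 39.1 CPM. CCND1 was between 154 and 288 CPM, CDKN1A between 138 and 243 CPM, BCL2 between 13.8 and 44.9 CPM, FGF2 between 9.97 and 15.6 CPM, PDGFB between 12.9 and 35.2 CPM, IRS1 between 5.88 and 9.76 CPM, PIK3R3 between 4.90 and 8.26 CPM and IGFBP4 between 3.96 and 12.6 CPM. EGF, IGF1 and PRLR were at 0 in all 6 libraries, and CSF1R, KDR and TEK had at most 5 counts.

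In the antigen presentation and the cytokine groups, the members called with the block were lower in Metadcarc1511.3, but the groups as a whole were mixed. Log2 differences with the block were above 0 for 3 of 8 tested genes of the first group and for 7 of 11 of the second. Of 8 tested genes of antigen presentation and innate immunity, CD74 and CD59 were lower. CD74, the invariant chain of MHC class II, had 38, 28 and 56 counts in Metadcarc1511.2 and 4, 0 and 1 counts in Metadcarc1511.3, a ratio of 25.5 with a counting interval of 10.6 to 79.8 (edgeR adjusted p = 0.0010 with and 0.035 without the block). It was nonetheless at no more than 3.1 CPM, against 559 CPM in Ln4.2 and 1659.7 CPM in Ln4.3. CD59, an inhibitor of the complement attack complex, had 8.13, 13.9 and 11.2 CPM against 3.28, 7.93 and 5.71 CPM, without overlap (log2 difference -1.01 ± 0.16, edgeR adjusted p = 0.0045 with the block).

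Of 11 tested cytokine and JAK-STAT genes, OSMR and CCL7 were lower. OSMR, the oncostatin M receptor, had 46.2, 96.7 and 104 CPM against 26.7, 54.7 and 36.1 CPM (-1.05 ± 0.15, edgeR adjusted p = 0.0029 with the block), so that it was lower in every number while the lines overlapped. The chemokine CCL7 did not exceed 2.69 CPM in Metadcarc1511.2 and 0.540 CPM in Metadcarc1511.3 (-2.64 ± 0.46, 0.0067). Of 14 tested TGF-beta, SMAD and YAP genes, 3 were lower, GDF15 and SNAI2 among them, and none was higher. Of 7 tested Wnt genes, WNT11, a ligand of noncanonical signalling, was lower, with 3.69, 4.34 and 2.16 CPM against 1.25, 1.56 and 0.291 CPM (-1.77 ± 0.30, 0.0057 with the block).

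Most other genes with the largest changes under the block were present at low levels. PLEK, a protein kinase C substrate of platelets and leukocytes, had 1, 4 and 4 counts against 33, 92 and 54 counts, a ratio of 19.1 in favor of Metadcarc1511.3 with a counting interval of 9.82 to 42.4. Of the 7 leukocyte markers, 4 were at 0, LAPTM5 had 1, 4 and 0 counts against 4, 10 and 2, and ITGB2 had 17, 7 and 20 counts against 4, 2 and 1. Their part in the difference of PLEK and CD74 was not tested. C1QTNF1, a secreted C1q-related factor, did not exceed 0.388 CPM in Metadcarc1511.2 and was between 1.56 and 2.10 CPM in Metadcarc1511.3, and ANKRD35 was between 0.385 and 0.610 CPM against 1.98 and 4.26 CPM. EXOC3L2 was between 0.134 and 0.499 CPM against 0.623 and 1.75 CPM. In the other direction, GNAI1, an inhibitory G protein subunit, had 78 counts in Metadcarc1511.2 against 8, a ratio of 10.2 (4.92 to 24.4), and CHRNB4, a nicotinic receptor subunit, 70 against 9, a ratio of 8.12 (4.04 to 18.5).

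A few of these genes were better expressed. RASL11A, a Ras-like GTPase, had 8.46, 8.57 and 8.37 CPM against 32.8, 79.6 and 46.5 CPM (log2 difference 2.57 ± 0.22, edgeR adjusted p = 0.00021 with the block). PHOSPHO1, a phosphatase of matrix mineralization, had 2.69, 4.34 and 4.77 CPM against 10.2, 29.4 and 19.3 CPM (2.26 ± 0.20, 0.00023). GM2A, the lysosomal activator of ganglioside breakdown, had 29.0, 53.7 and 72.2 CPM against 77.1, 199 and 269 CPM (1.74 ± 0.12, 8.9e-05), and was also lower in the earliest library of each line. For all 3 genes the lowest library of Metadcarc1511.3 was above the highest of Metadcarc1511.2.

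Of 13 tested genes of drug handling and stress, GDF15 was lower and GSTP1 higher with the block, and of 13 developmental transcription factors SNAI2 was lower. In 6 of the 17 groups no member was called between lines with or without the block. Beside the leukocyte and endothelial groups, with 2 tested genes each, these were 18 tested genes of mitosis and cell cycle, 40 of centrosome and spindle, 18 of the cilium and 20 of sterol, fatty acid and phospholipid metabolism. The median log2 difference without the block was 0.22 for mitosis, 0.09 for centrosome and spindle, 0.11 for the cilium and 0.08 for lipid metabolism, beside 0.00 over all genes tested.

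The next comparison places the called genes among other samples of the same dog. Adcarc1511.1, which took no part in the calls, had a mean log2 CPM nearer to Metadcarc1511.2 for 35 of the 58 genes (60.3%) and for 381 of the 545 (69.9%), beside 58.3% of all genes tested. For genes with at least 10 counts in all 3 libraries of Adcarc1511.1, the shares were 32 of 45 (71.1%), 306 of 406 (75.4%) and 58.5%. The named genes went both ways. TMEM47 with 632, 610 and 732 CPM, CDH6 with 134, 121 and 65.6 CPM, SLIT2 with 100.8, 35.6 and 44.2 CPM and FOLH1 with 286, 92.3 and 136 CPM were expressed in all 3 libraries of Adcarc1511.1, as in Metadcarc1511.2. For FOLH1 the levels were nonetheless far apart, with a mean of 171 CPM in Adcarc1511.1 and 7.10 CPM in Metadcarc1511.2. GDF15 and LAMA4, in contrast, had 1 and 0 counts over the 3 libraries of Adcarc1511.1, as low as in Metadcarc1511.3.

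In the tissues, the difference between Ln4.3 and Ln4.2 had the same sign as that between the lines for 31 of the 58 genes (53.4%) and for 280 of 544 (51.5%) of those called with the block, beside 53.1% of all genes tested. The pooled shares were thus near the background, but the directions departed from it in opposite ways. Without and with the block, the share was 5 of 17 (29.4%) and 79 of 196 (40.3%) for genes called higher in Metadcarc1511.3. For genes called lower it was 26 of 41 (63.4%) and 201 of 348 (57.8%). All genes tested gave 53.6% in the higher and 52.6% in the lower direction. TMEM47 was at 67.0 CPM in Ln4.2 and 17 CPM in Ln4.3, CDH6 at 8.05 and 4.41 CPM, SLIT2 at 147 and 111 CPM, and FOLH1 at 58.2 and 3.15 CPM, each lower in Ln4.3 as in its line. LAMA4 was likewise lower in Ln4.3. PPIC was at 69.3 and 27.0 CPM and COL3A1 also lower in Ln4.3, against the direction of the lines. GDF15, at 2.08 and 2.90 CPM, was higher in Ln4.3, again against the lines. Other named genes called with the block went both ways, with FBLN5 at 265 and 72.6 CPM as in the lines. ITGA5, at 503 and 180 CPM, went against them. The tissues hold fibroblasts and leukocytes in different amounts, with summed fibroblast markers at 53568 CPM in Ln4.2 and 7571 CPM in Ln4.3 and leukocyte markers at 899 and 1932 CPM, and in such bulk samples fewer cells of a type cannot be told apart from less RNA per cell.

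With line and earliest or later library in 1 fit, more genes were called between early and late flasks than between lines, for which that fit gave 302 genes. With line as a covariate, 909 genes (7.5%) were called between the replicates 1 of both lines and the 4 later libraries, 401 higher (3.31%) and 508 lower (4.19%) in the earliest. Passage and anything else that the replicates 1 had in common cannot be told apart here. Of these 909 genes, 59 were also called between lines with the block, beside 545 of all 12125 genes tested (4.49%).

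Several genes of cell division were lower in the earliest libraries. Of 18 tested genes of mitosis and cell cycle, 7 were called lower and none higher (CCNA2, PLK4, NEK2, TPX2, AURKA, VRK1 and GMNN), with a median log2 difference of -1.44 over the group, beside 0.01 over all genes tested. CCNA2, the cyclin of S phase and mitotic entry, had 3.49 and 3.68 CPM in the replicates 1 of Metadcarc1511.2 and Metadcarc1511.3, and 28.9, 38.1, 43.4 and 51.7 CPM in the later libraries. The log2 difference was -3.48 ± 0.23 (edgeR adjusted p = 0.00025).

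PLK4, the kinase that starts centriole duplication, had 5.30 and 5.72 CPM in the earliest libraries and between 39.4 and 40.2 CPM in the later ones (-2.85 ± 0.15, edgeR adjusted p = 0.00019). NEK2, a centrosomal kinase, had 6.11 CPM in both and between 28.4 and 45.1 CPM later (-2.5 ± 0.20, 0.00037). AURKA, the spindle pole kinase, had 11.1 and 11.3 CPM and then between 35.9 and 78.5 CPM, and TPX2, its activator, 33.3 and 39.4 CPM and then between 106 and 330 CPM. In each of these genes the earliest libraries of both lines lay together, below all 4 later ones.

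The centrosome and spindle group had 8 lower and 1 higher of 40 tested genes (median -0.34). HAUS5, a subunit of the augmin complex that branches spindle microtubules, had 4.97 and 8.32 CPM in the earliest libraries and between 30.7 and 36.7 CPM in the later (-2.37 ± 0.19, edgeR adjusted p = 0.00040). The augmin subunits HAUS7 and HAUS8, the centriole scaffold SASS6, CENPJ, CEP128, TUBGCP6 and SSNA1 were lower by log2 differences between -2.32 and -1.09. FBF1, a transition fiber protein of the cilium, was higher at 1.53 ± 0.29 (edgeR adjusted p = 0.0094).

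Lipid metabolism had 4 lower and no higher of 20 tested genes (median -0.45). LIPG, the endothelial lipase, had 5.57 and 6.34 CPM in the earliest libraries and between 19.1 and 54.5 CPM later (-2.46 ± 0.44, edgeR adjusted p = 0.0072). The acyl-CoA synthetases ACSL3 and ACSL4 and MVD, an enzyme of the mevalonate pathway, fell by 1.49, 1.16 and 1.07 on the log2 scale in the earliest libraries. Single called genes of other groups that were lower were SDC1, IGFBP4, VANGL1 and ITGA6, with log2 differences between -1.33 and -1.07.

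Genes that were higher in the earliest libraries came from several groups. OLR1, a scavenger receptor for oxidized lipoprotein, had 270 and 203 CPM in the earliest libraries and 6.98, 0.222, 2.97 and 1.05 CPM in the later ones, the largest change with a symbol at 6.43 ± 0.75 (edgeR adjusted p = 0.0015). DOCK8, an exchange factor best known in leukocytes, had 6.25 and 7.64 CPM and then between 0.440 and 1.24 CPM (3.12 ± 0.30, 0.00075). The 7 leukocyte markers summed to 0.453 and 1.21 CPM in the earliest libraries and to between 0.233 and 1.11 CPM in the later ones, and their part in the difference of DOCK8 was not tested. The earliest libraries were above every later one for both genes.

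LOXL4, a lysyl oxidase of collagen crosslinking, had 74.1 and 61.7 CPM in the earliest libraries and between 5.54 and 19.6 CPM later (2.53 ± 0.38, edgeR adjusted p = 0.0037). The death domain adaptor CRADD had 157 and 146 CPM and then between 29.3 and 38.2 CPM (2.18 ± 0.13, 0.00023), and RIPK2, the kinase of NOD receptor signalling, had 110 CPM in both and then between 16.3 and 41.4 CPM (2.15 ± 0.32, 0.0037). LAMB3, the beta chain of the hemidesmosomal laminin, had 2900 and 2009 CPM and then between 485 and 848 CPM (1.99 ± 0.15, 0.00034). Smaller increases were found for LAMB2, CC2D2A and MCC, at 1.11, 1.18 and 1.35 on the log2 scale. No member was called in the endothelial, cytokine, TGF-beta, drug handling and transcription factor groups, with 2, 11, 14, 13 and 13 tested genes.

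With the passage number in place of earliest and later, 910 genes were called. At passage 79, the one passage at which both lines were sampled, CCNA2 had 38.1 CPM in Metadcarc1511.2 and 3.68 CPM in Metadcarc1511.3, PLK4 had 39.4 and 5.72 CPM, and OLR1 had 0.222 and 203 CPM.

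**Figure D4:**
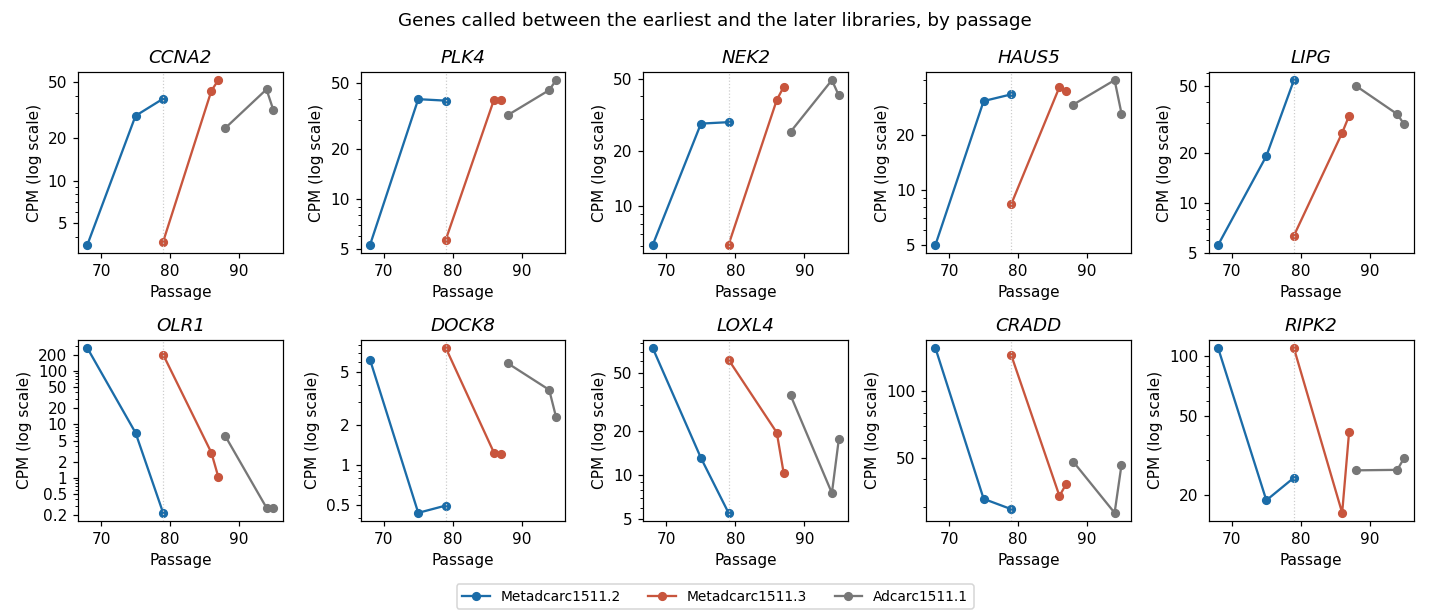
CPM on a log scale of the 5 genes with a symbol that were most strongly lower (top row) and higher (bottom row) in the earliest libraries, against passage, with 1 line per cell line and a dotted line at passage 79. The first library of both metastasis lines lies apart from the later ones in each gene at different passages, and Adcarc1511.1 spans a narrower range on the log scale in each panel.

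Adcarc1511.1 took no part in these calls. Its replicate 1 was lower than the mean of its later libraries for 393 of the 508 genes called lower (77.4%, median log2 difference -0.44) and higher for 290 of the 401 called higher (72.3%, median 0.38), beside 48.0% and 51.7% of all genes tested. CCNA2 had 23.6, 44.5 and 31.6 CPM in its replicates 1 to 3, PLK4 32.2, 45.6 and 52.3 CPM, and OLR1 6.12, 0.276 and 0.279 CPM. In the metastasis lines the median differences of the same genes were -1.66 and 1.44, from which the genes were chosen. The difference between the effect in the metastasis lines and that in Adcarc1511.1, tested by edgeR over 9 libraries, gave 0 calls (0%), with 1391 genes at an unadjusted p under 0.05 (11.5%), and the effect in Adcarc1511.1 alone gave 0 calls, with 981 such genes. DESeq2 was not run on these.

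The calls rest on both earliest libraries. Without the earliest library of Metadcarc1511.2, or that of Metadcarc1511.3, edgeR called 0 genes, with 2892 and 3396 genes at an unadjusted p under 0.05. With the 3 libraries of Adcarc1511.1 in the fit it also called 0 genes, with 3139 at an unadjusted p under 0.05.

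Finally, the difference between earliest and later libraries was compared between the lines. The interaction had 0 called genes (0%) by edgeR and by DESeq2, with 232 and 126 genes at an unadjusted p under 0.05, and 2 residual degrees of freedom. None of the following genes was called in the interaction, and they are those with a symbol and the smallest unadjusted p in each direction. Between lines, SLIT2 was called without and with the block, and ADGRV1 and TMEM144 with the block only, both lower in Metadcarc1511.3. TMEFF2, a membrane protein of prostate and brain, had 16.1, 80.1 and 89.7 CPM in Metadcarc1511.2 and 67.0, 84.7 and 135 CPM in Metadcarc1511.3, an interaction of 1.69 on the log2 scale. ADGRV1, a large adhesion receptor, had 97.3 CPM in replicate 1 of Metadcarc1511.2, at least 24.6 CPM in its later libraries and between 8.04 and 11 CPM in Metadcarc1511.3, an interaction of -1.78. SH2D5, TMEM144, SLIT2 and RIMS2 had positive interactions between 1.21 and 1.89, and LOC480351, LMOD3, IL22RA1 and FBLN2 negative ones between -4.46 and -0.75.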

How the data were processed

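RNA from frozen cell pellets was sequenced as single reads, and per the labels and the study's methods the authors used Trimmomatic 0.36 for trimming, STAR 2.5.3 for alignment to CanFam3.1 and RSEM 1.3.0 for quantification of Ensembl genes. The authors deposited expected counts per lane without normalization, of which 17.5% of the values above 0 were not whole numbers. The 4 lanes of each library were added up and rounded. Genes with at least 10 counts in all 3 libraries of a line were tested with edgeR 4.0.16 in R 4.3.3 (TMM, quasi-likelihood F test). DESeq2 1.42.0 was an alternative. Calls needed a 2-fold change and an adjusted p not above 0.01, except that the test of the passage number had no fold limit. Standard errors were derived from the F statistic. CPM used TMM factors, and log2 CPM for distances and shares a prior count of 2.

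Replicate numbers come from the labels, and were taken as pairs because deviations of same-numbered libraries correlated by over 0.1 in every pair. The labels name no shared day or batch. Counting intervals of ratios are exact (Clopper-Pearson, 95%) and, like the floor of 3 counts, cover counting error only.

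Named genes were the 10 with a symbol that were most strongly higher and lower among calls between lines, called members of 17 gene lists, and the 5 strongest in each direction between earliest and later libraries. In the interaction, the 5 with the smallest p per direction were named. Members of the prostate, growth factor and cell type lists were given by level. At most 2 identifiers without symbol per direction were named. Members and lists were chosen with earlier results of these data known. The reference table of symbols matched 0 identifiers, so symbols came from the study's tables, and no coordinates or sequences are given. A gene with 2 identifiers was left out, and some members of the lists are not reported here. The scripts were tested on simulated data. The other libraries of the series were not used here.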

Additional observations from a re-analysis of the deposited data

How the results depend on the processing

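Calls between lines depended on the model. With the replicate block they were 545 in place of 58, with the earliest or later library as a covariate 302, and with the passage number as a covariate 538. DESeq2 without a block gave 376, no count filter 116, an adjusted p of 0.05 without a fold limit 213, and Adcarc1511.1 in the fit 128. Leaving out single libraries gave between 0 and 41, with 0 without replicate 2 or without replicate 3 of Metadcarc1511.3 (1080 and 1130 genes at an unadjusted p under 0.05 by edgeR), 11 without replicate 2 and 8 without replicate 3 of Metadcarc1511.2, and 26 without replicate 1 of Metadcarc1511.3. DESeq2 size factors (59) and the later libraries alone (57) changed little. The blocked count was 561 with DESeq2, 546 with size factors and 739 without a filter, but 2389 at an adjusted p of 0.05 without a fold limit. Without one replicate number it was between 534 and 757. These blocked alternatives and the tests with Adcarc1511.1 were chosen after seeing the data.

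Calls between earliest and later libraries were 1243 with DESeq2, 899 with size factors and 980 without a filter. The passage number gave 910, but without a fold limit. Calls were 3466 at an adjusted p of 0.05 without a fold limit, 463 without the line as a covariate and 0 with Adcarc1511.1 in the fit. Leaving out single libraries gave between 0 and 1043, with 0 without either replicate 1 and 500 without replicate 3 of Metadcarc1511.2. The interaction had 0 calls in each setting, and could not be fitted without a replicate 1. Without a library that left 1 sample in an arm, that sample was assumed to vary like the others.

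Of the 6 libraries, 2 were nearest to the library of the same number in the other line, also with rlog values and a prior count of 0.5, but 0 were so over the 500 most variable genes. The share for the tissues, with both directions pooled, was between 50.2% and 53.4%, the lowest for the blocked calls with at least 10 counts in both tissues. The share nearer to Metadcarc1511.2 in Adcarc1511.1, also with both directions pooled, was 60.3%, 71.1% with at least 10 counts, and for the blocked calls 69.9% and 75.4%. The count filter favors the line in which a gene is higher. Of the genes named for a difference between lines, COL10A1 changed direction (log2 difference 0.82 with the passage number as a covariate).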
